A study of Mus musculus with 8 samples.

Results

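The genes described here encode the mitochondrial ribosomal proteins. They were taken as every gene on the array whose symbol begins with Mrpl or Mrps followed by a digit. This gave 72 of the 18138 gene symbols, carried by 105 of 25697 probes. Mrpl genes are counted as large subunit and Mrps genes as small subunit, save Mrps18a and Mrps30, which are counted as large subunit. RNA came from macrophages grown out of mouse bone marrow, an in vitro model in which GM-CSF (10 ng/ml, 7 days) drives marrow cells towards macrophages. The cultures were WT cells, or cells labelled iNOS knockout (iNOS-/-, methods strain B6.129P2-Nos2tm1Lau/J), which carry a germline disruption of Nos2, the gene of inducible nitric oxide synthase. The labels give C57bl/6J female mice of 8 weeks for every group. Cells were left unstimulated or were stimulated for 6 h with LPS (200 ng/ml), a component of the outer membrane of Gram-negative bacteria, plus IFN-γ (10 ng/ml), which is called M1 activation. Both genotypes, with and without stimulation, make 4 groups, and Illumina bead arrays were hybridised with RNA of 2 samples from each. Whether the samples of 1 group derive from separate mice or cultures is not stated by the labels or methods, so the p-values reflect the spread among these 8 arrays, which may be technical.

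Mitochondria keep a ribosome of their own, separate from the ribosome of the cytosol. It translates the few mRNAs encoded in mitochondrial DNA, all of which specify hydrophobic subunits of the respiratory chain and ATP synthase. Its RNA comes from mitochondrial DNA, whereas all of its proteins are encoded in the nucleus, made in the cytosol and imported. The proteins form a large subunit, which joins amino acids, and a small subunit, which reads the mRNA. Some have a counterpart in the bacterial ribosome and others occur only in mitochondria. LPS with IFN-γ is known to shift macrophages from respiration to glycolysis, and nitric oxide is known to inhibit the respiratory chain.

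Levels are given as log2 of the probe's intensity after each array was scaled to the mean of all arrays, and a change as the difference of such values ± its standard error (SE). A gene was called when its adjusted p-value from limma, corrected over all 13868 probes tested, was under 0.05. Since probes differ in brightness for technical reasons, levels are compared between groups and never between genes. Of the 72 genes, 67 had a probe that was detected on at least 2 arrays and were tested. The other 5 (Mrpl19, Mrpl21, Mrpl32, Mrpl45 and Mrps14) were not detected on any array and have no measured level. Of the 67, 66 were detected on all 8 arrays, and Mrpl39 on 7. The probes of Mrpl33, Mrps33 and Mrps24 were the brightest by mean and those of Mrpl39, Mrpl15 and Mrpl35 the dimmest. The median difference between both arrays of a group was 0.10 to 0.13 over the 67 genes, and the median SE of a change was 0.11.

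Facts of the whole data set bear on these results. Each array had 46% to 49.3% of its probes detected, and scale factors ran from 0.84 to 1.35. The probe of Nos2 was not detected on any unstimulated array, and its log2 level was 7.52 and 7.10 on the WT M1 arrays and 7.59 and 7.76 on the iNOS-/- M1 arrays (difference 0.37 ± 0.32, adjusted p = 0.39). Whether this probe lies inside the disrupted stretch is not given in the sources used here, so it checks the stimulation but not the genotype. Marker genes of other cell types differed between the groups as well. The summed intensity of 12 markers of dividing cells was 772 to 861 in WT unstimulated, 2343 to 2472 in WT M1, 2789 to 2832 in iNOS-/- unstimulated and 1024 to 1033 in iNOS-/- M1. Of these markers, Ccnb2 and Bub1 were not detected in any group, and Ccna2 was not detected in WT unstimulated or iNOS-/- M1. The sum of 8 dendritic cell markers was 871 to 878 in WT unstimulated, 16724 to 17299 in WT M1, 14114 to 14990 in iNOS-/- unstimulated and 37110 to 38938 in iNOS-/- M1, with Flt3 undetected throughout and Cd209a undetected in WT unstimulated and iNOS-/- M1. The 8 granulocyte markers summed to 1174 to 1193, 1441 to 1549, 1733 to 1792 and 4115 to 4245 in the same order, with Mpo and Retnlg undetected throughout and S100a9, Camp and Ngp undetected in WT unstimulated. The 11 macrophage markers summed to 49043 to 49269, 56859 to 57179, 40678 to 41657 and 59937 to 62626, with 10 detected in every group and Msr1 in none. A sum is carried by its brightest markers, and single markers did not all follow it. In iNOS-/- M1 against WT M1, 3 of 10 tested macrophage markers were called higher and 5 lower, with a median of −0.31. Of 7 tested dendritic cell markers, 4 were called higher and 1 lower there. On stimulation of WT cells, 4 of 6 tested granulocyte markers were called higher and 1 lower. The part of these differences in the results below was not tested, and in bulk RNA fewer cells of a type and less RNA per cell cannot be told apart.

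Promoters are shown for 4 genes whose response to stimulation was called different between the genotypes, 2 that fell and 2 that rose in iNOS-/- cells. Mrpl12 makes the mobile stalk that engages translation factors, and Mrpl28 is a large subunit protein with a bacterial counterpart. Mrps18c belongs to a small family related to the bacterial protein S18, and Mrpl27 is the counterpart of bacterial L27, whose tail reaches the site of peptide bond formation. The 250 bases before the start of each gene are RefSeq sequence of build GRCm38.p6. They lie at chr11:120484387-120484636 (plus strand), chr17:26123253-26123502 (plus), chr5:100798509-100798758 (plus) and chr11:94653541-94653790 (plus), and are written 5′ to 3′ along the gene. Capitals mark matches to any of 6 short motifs, searched on both strands.
Mrpl12: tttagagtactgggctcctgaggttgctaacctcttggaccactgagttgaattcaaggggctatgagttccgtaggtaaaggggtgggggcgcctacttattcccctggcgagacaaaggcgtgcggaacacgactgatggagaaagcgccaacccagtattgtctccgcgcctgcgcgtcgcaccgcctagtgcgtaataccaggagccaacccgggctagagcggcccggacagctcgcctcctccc
Mrpl28: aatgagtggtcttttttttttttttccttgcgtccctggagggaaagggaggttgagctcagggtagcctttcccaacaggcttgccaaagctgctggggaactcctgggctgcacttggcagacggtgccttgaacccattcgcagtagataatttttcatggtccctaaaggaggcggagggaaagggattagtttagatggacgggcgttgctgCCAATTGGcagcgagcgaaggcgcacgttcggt
Mrps18c: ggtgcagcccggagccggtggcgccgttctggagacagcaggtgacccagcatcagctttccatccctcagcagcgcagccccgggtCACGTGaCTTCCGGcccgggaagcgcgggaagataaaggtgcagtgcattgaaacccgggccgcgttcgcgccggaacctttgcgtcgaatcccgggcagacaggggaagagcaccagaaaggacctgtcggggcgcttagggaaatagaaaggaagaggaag
Mrpl27: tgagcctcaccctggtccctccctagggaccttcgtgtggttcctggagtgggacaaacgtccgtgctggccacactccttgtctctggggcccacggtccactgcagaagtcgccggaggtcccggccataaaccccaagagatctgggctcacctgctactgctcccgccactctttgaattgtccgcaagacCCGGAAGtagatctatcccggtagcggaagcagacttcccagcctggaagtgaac
The motifs were GCGCATGC (NRF1 core), CCGGAAG (ETS core), CACGTG (E-box), GGGCGG (SP1 box), CCAAT and AAGATGGC (YY1 core). The Mrpl12 window holds no match. In Mrpl28, CCAAT and its reverse overlap, 33 and 30 bases before the start. In Mrps18c an E-box lies 163 bases and an ETS core 156 bases before the start, and in Mrpl27 an ETS core lies 55 bases before it. Windows were found for 63 of the 72 genes. The ETS core occurred in 16 of them (25.4%), beside 7.05% of all 27025 gene promoters in the table. The NRF1 core occurred in 8 (12.7%, beside 2.32% of all), the SP1 box in 30 (47.6%, beside 32.9%), the YY1 core in 4 (6.35%, beside 1.59%), the E-box in 5 (7.94%, beside 6.05%) and CCAAT in 22 (34.9%, beside 34.5%). Among genes called lower on stimulation of iNOS-/- cells, with 22 windows, the SP1 box occurred in 68.2%, CCAAT in 45.5%, the ETS core in 27.3%, the YY1 core in 13.6%, and the NRF1 core and the E-box in 9.09% each. Among the 33 windows of genes not called there, the shares were 39.4%, 30.3%, 21.2%, none, 15.2% and 3.03% in the same order, the last 2 for the NRF1 core and the E-box. Only 4 genes called higher had a window, of which 3 held an ETS core, 2 an E-box, 1 CCAAT and none an SP1 box. The windows were not matched for base composition, and a match is a stretch of letters, not a bound site.

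Across the 8 arrays, the 67 genes were highest as a group in iNOS-/- unstimulated cells. The median deviation from each gene's own mean over all arrays was −0.02 and 0.03 on the WT unstimulated arrays, −0.10 and −0.03 on the WT M1 arrays, 0.13 and 0.12 on the iNOS-/- unstimulated arrays, and −0.10 and −0.06 on the iNOS-/- M1 arrays. Over all 10163 genes tested, the same median lay between −0.01 and 0.06 on every array. The heat map of single arrays shows that the group was not uniform. In total 43 of the 67 genes (64.2%, beside 70.9% of all genes tested) were called in at least 1 of the 5 comparisons. Each gene was read from its brightest tested probe, and of the 24 genes called in no comparison, Mrpl3, Mrpl33, Mrpl48, Mrps25 and Mrps31 had another probe that was called in at least 1. Genes without any called probe included Mrpl4, Mrpl11, Mrpl37, Mrps2 and Mrps27.

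**Figure D1:**
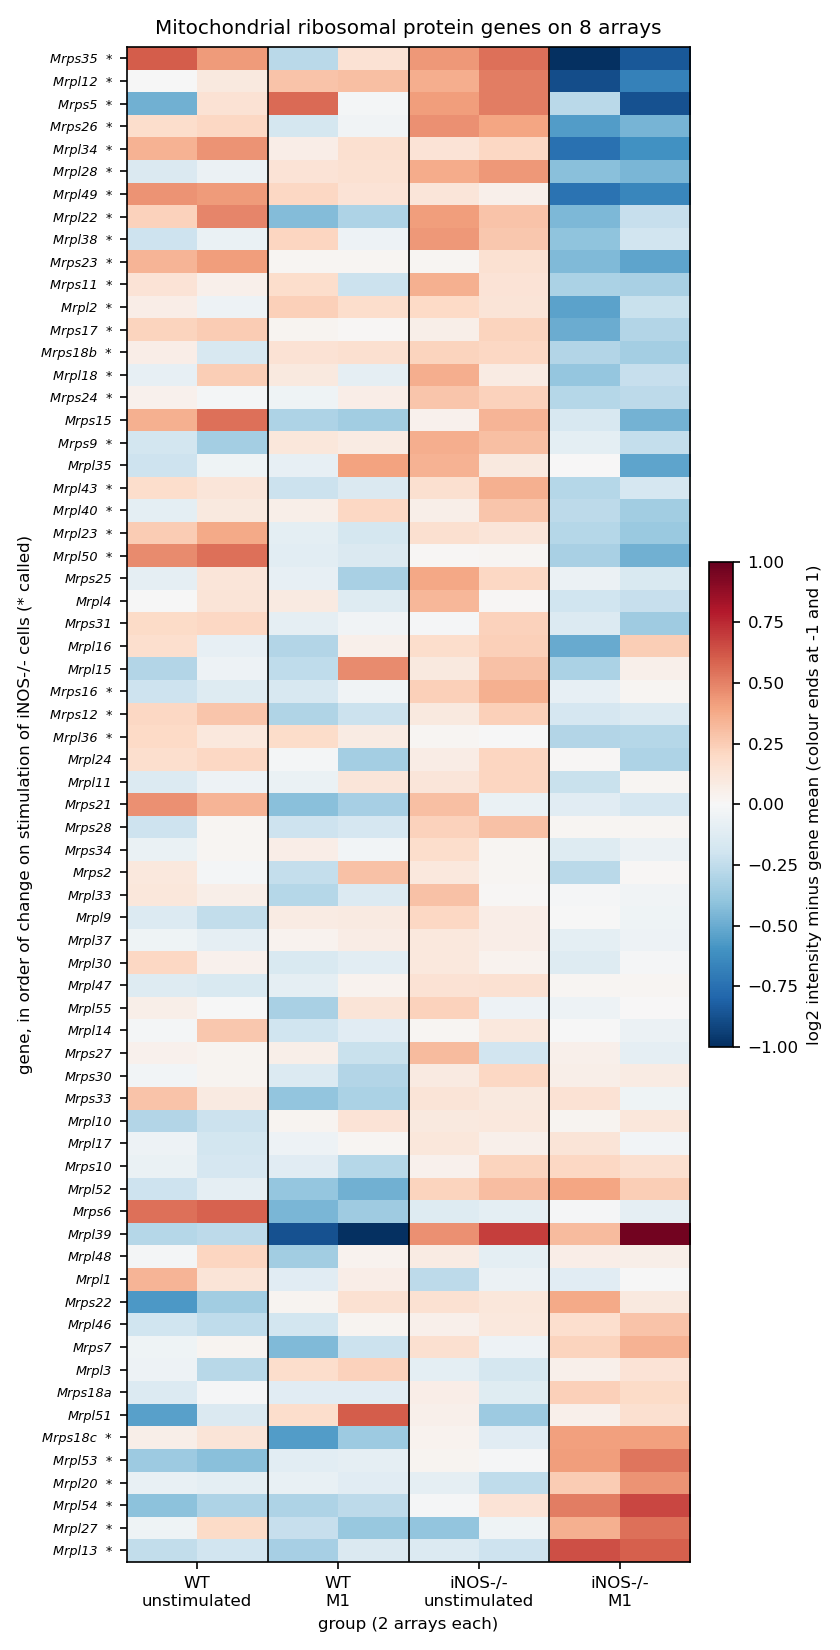
Log2 intensity of each of the 67 genes tested (rows) on each of the 8 arrays (columns, 2 per group) minus the gene's own mean over the arrays, with colour ending at -1 and 1. Rows run from the gene that fell most (Mrps35) to the gene that rose most (Mrpl13) on stimulation of iNOS-/- cells, and a star marks the 30 genes called in that comparison.

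The first comparison asked how M1 cells labelled iNOS-/- differ from WT M1 cells. Of the 67 genes, 13 were higher and 13 lower in iNOS-/- M1 (19.4% each), beside 25.5% of all genes tested called higher and 24.6% called lower. The median difference was −0.01, beside 0.01 over all genes. Read from the brightest probes, the differences among called genes ran from 2.98-fold higher (Mrpl39) to 2.11-fold lower (Mrpl12). The other probes of Mrps25, described below, lay lower still. Of 10 tested dividing cell markers, 8 were called lower and 1 higher in iNOS-/- M1, with a median of −1.58. Their part in the result was not tested.

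Among genes lower in iNOS-/- M1 cells, Mrpl12 stood at 9.28 and 9.29 on the WT M1 arrays and at 8.11 and 8.32 on the iNOS-/- M1 arrays. The groups did not overlap, and the difference was −1.08 ± 0.11 (adjusted p = 0.00119). Besides its place in the stalk, the Mrpl12 protein is known to bind the mitochondrial RNA polymerase. Mrpl49, a mitochondria-specific protein of the large subunit, fell from 8.04 and 7.96 to 7.09 and 7.17 (−0.87 ± 0.08, adjusted p = 0.000928). Mrpl34, the counterpart of the small bacterial protein L34, fell from 8.16 and 8.25 to 7.34 and 7.49 (−0.79 ± 0.10, adjusted p = 0.00207). Mrps35, a mitochondria-specific protein of the small subunit, fell from 6.40 and 6.80 to 5.62 and 5.82 (−0.89 ± 0.17, adjusted p = 0.00978). Mrpl2, whose bacterial counterpart lies beside the peptidyl transferase centre, fell by 0.59 on the log2 scale (adjusted p = 0.0145), a call lost without WT M1 array 1 (adjusted p = 0.0623). In none of these 5 genes did the arrays of the groups overlap. The other 8 lower genes were Mrpl28, Mrpl36, Mrpl40, Mrps17, Mrps18b, Mrps23, Mrps24 and Mrps26.

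Among genes higher in iNOS-/- M1 cells, Mrpl54 rose from 9.06 and 9.11 to 9.88 and 10.04 (0.88 ± 0.10, adjusted p = 0.00183) and Mrpl13, the counterpart of bacterial L13, from 9.54 and 9.73 to 10.52 and 10.47 (0.86 ± 0.10, adjusted p = 0.00164). Mrps18c rose from 9.35 and 9.55 to 10.33 and 10.32 (0.87 ± 0.11, adjusted p = 0.00204), so that each of the 3 was clear of the WT range. Mrpl27 rose from 8.92 and 8.78 to 9.51 and 9.70 (0.76 ± 0.17, adjusted p = 0.0154). Without WT M1 array 2 or without iNOS-/- M1 array 2 the call of Mrpl27 was lost (adjusted p = 0.0758 and 0.0649). Mrpl39 showed the widest gap, from 3.02 and 2.89 to 4.21 and 4.85 (1.58 ± 0.23, adjusted p = 0.00353). Its probe was dim: 1 of both WT M1 arrays did not detect it, and with values under 16 set to 16 the difference was 0.53 (adjusted p = 0.137). The remaining higher genes were Mrpl20, Mrpl52, Mrpl53, Mrps6, Mrps7, Mrps10, Mrps18a and Mrps33. The 3 genes related to bacterial S18 were thus called in different directions, with Mrps18a (0.33 ± 0.10, adjusted p = 0.044) and Mrps18c higher and Mrps18b lower (−0.47 ± 0.10, adjusted p = 0.0147).

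The total of 26 called genes dropped to 14 without WT M1 array 1 and to 16 without WT M1 array 2. The even split between directions depended on the scaling, since 10 genes were higher and 21 lower with neqc (limma's background correction and quantile normalization), and 8 higher and 20 lower with quantile normalization alone. Of all genes tested, 26.5% were higher and 29.3% lower with neqc, and 21.9% and 26.8% with quantile normalization.

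**Figure D2:**
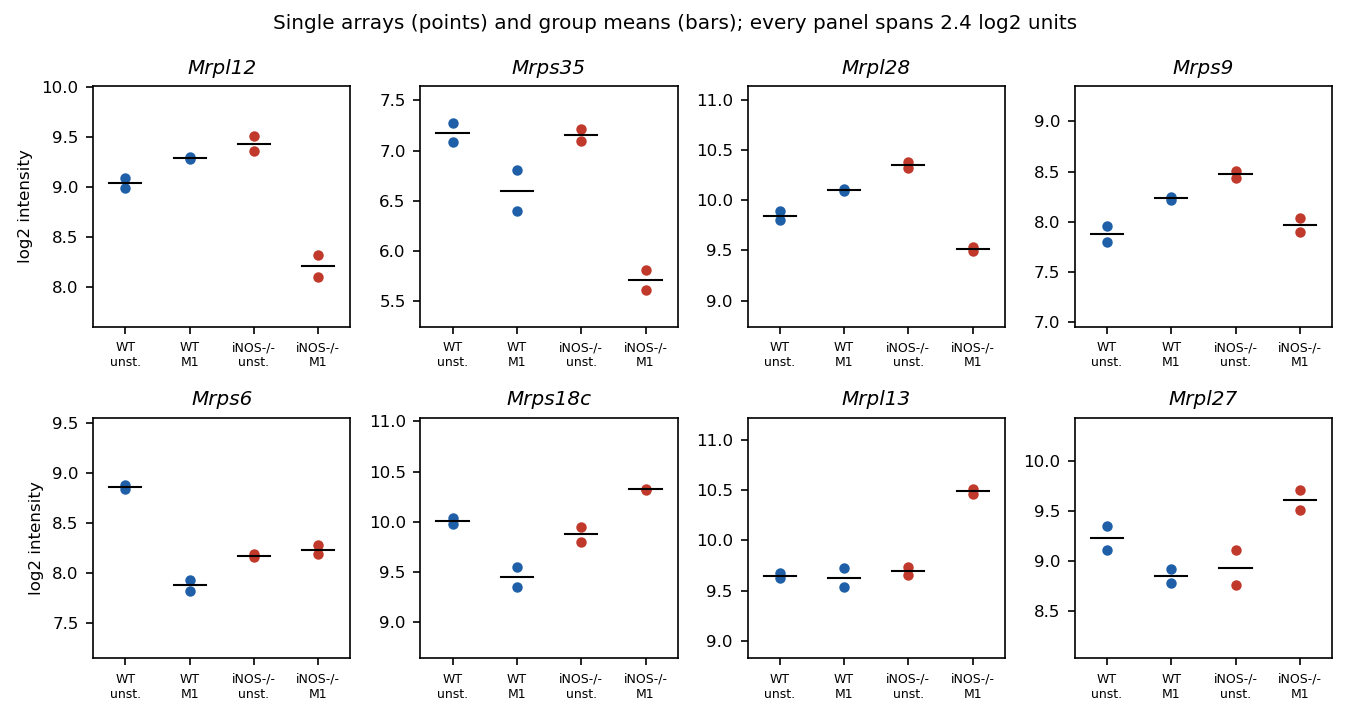
Log2 intensity on single arrays (points, WT blue and iNOS-/- red) and the mean of both arrays of each group (bars) for 8 genes, with panels of equal height in log2 units. Mrpl12, Mrps35, Mrpl28 and Mrps9 dropped on stimulation of iNOS-/- cells, Mrps6 and Mrps18c dropped on stimulation of WT cells, and Mrpl13 and Mrpl27 were highest in iNOS-/- M1.

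Before stimulation, more of the genes were called higher than lower in iNOS-/- cells, a split that rested on all 4 unstimulated arrays. Of the 67, 12 were higher (17.9%, beside 17.1% of all genes tested) and 3 lower (4.48%, beside 17% of all). The median difference was 0.12, beside −0.02 over all genes, and 44 of the 67 lay above 0. Cytosolic ribosomal proteins, which form the other ribosome of the cell, had a median of 0.31, with 21 of 58 called higher and 50 above 0. Of 10 tested dividing cell markers, 9 were called higher and none lower, and their part in the result was not tested.

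Mrps9, the counterpart of a bacterial protein whose tail touches the tRNA in the small subunit, rose from 7.95 and 7.80 to 8.50 and 8.44 (0.59 ± 0.10, adjusted p = 0.00925). Mrpl28 rose from 9.81 and 9.89 to 10.32 and 10.39 (0.50 ± 0.08, adjusted p = 0.00821). Mrps16 rose from 8.05 and 8.13 to 8.50 and 8.61 (0.46 ± 0.10, adjusted p = 0.0193). The arrays of both genotypes were apart for all 3 of them. Mrps22, a mitochondria-specific small subunit protein, was higher by 0.59 ± 0.14 (adjusted p = 0.0273), and the dim Mrpl39 by 0.84 ± 0.23 (adjusted p = 0.0412). Mrpl9, Mrpl10, Mrpl12, Mrpl47, Mrpl52, Mrpl53 and Mrpl54 rose by 0.29 to 0.42. In the other direction, Mrps6, the counterpart of bacterial S6, fell from 8.84 and 8.88 to 8.16 and 8.19 (−0.68 ± 0.09, adjusted p = 0.00369). Mrpl50, mitochondria-specific and in the large subunit, fell from 8.85 and 8.93 to 8.39 on both arrays (−0.50 ± 0.09, adjusted p = 0.0128).

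Mrpl49, the third gene called lower here (−0.35 ± 0.08, adjusted p = 0.0282), was read in opposite directions by its probes. The first 30 bases of the 50-base probes that disagreed are shown, each with its start in the transcript.
Mrpl49, start 1399: ctggcgcccacctcaccagccacatgtcca
Mrpl49, start 145: gaataccaatttgtggagcgcctgctcccc
The probe at 1399, the brightest and the one used throughout, gave −0.35, whereas the probe at 145 gave 0.69 (adjusted p = 0.0498). On stimulation of iNOS-/- cells both were lower (−0.78, adjusted p = 0.00104, and −0.71, adjusted p = 0.0311). The mean over all 4 tested Mrpl49 probes turned the direction before stimulation to 0.17 (adjusted p = 0.543). In this comparison, Mrpl49 was the only 1 of 20 genes with several tested probes to be called both ways, and in the other 4 comparisons no such gene was found. Probes still differed in whether they were called. Some but not all were called in 4 of the 20 genes here, and in 6 to 8 in the other comparisons. In iNOS-/- M1 against WT M1, the second Mrps11 probe was lower (−0.64, adjusted p = 0.0028), and the brightest was not called (−0.30, adjusted p = 0.173).

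The number of calls depended on single arrays. Without WT unstimulated array 1, 1 gene was higher and 2 were lower, and without array 2 of that group, or without iNOS-/- unstimulated array 1, 1 was higher and 1 lower. Without iNOS-/- unstimulated array 2, 2 were higher and 1 lower. The 15 calls became 8 and 9 without WT M1 array 1 and 2. With 1 array left in a group, the counts alone cannot tell lost precision from a smaller difference. The median stayed above 0, from 0.053 to 0.19. Its distance above the median of all genes was 0.14 with all arrays. That distance was 0.042 without iNOS-/- unstimulated array 1 and 0.19 without array 2 of that group. The call of Mrps6 was kept in each of these 8 fits with 1 array left out, and that of Mrpl28 was lost without WT unstimulated array 1 (adjusted p = 0.0586). The call of Mrps9 was lost without WT unstimulated array 2 (0.0595) or iNOS-/- unstimulated array 1 (0.051), and that of Mrpl50 in 3 of the 8 fits (up to 0.0698). Mrps16 and Mrps22 lost theirs without any 1 of the 4 unstimulated arrays (up to 0.108 and 0.142), and Mrpl39 without any array other than those of iNOS-/- M1 (up to 0.157).

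Stimulation of WT cells lowered 10 of the 67 genes (14.9%, beside 16.2% of all genes tested) and raised 4 (5.97%, beside 20.2% of all). The median change was −0.10, beside 0.04 over all genes. With an intercept in the scaling line these were −0.099 and −0.082, so that the distance from all genes shrank from −0.14 to −0.016. Small subunit genes made up 7 of the 10 that fell, out of 25 tested, and large subunit genes 3, out of 42 tested. Cytosolic ribosomal proteins had a median of 0.13 here, and nuclear-encoded subunits of the respiratory chain, the enzymes that mitochondrial translation serves, one of −0.13. Dividing cell markers moved the other way from the 67 genes, with 9 of 10 tested called higher, none lower and a median of 1.67. Their part in the result was not tested.

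Mrps6 fell from 8.84 and 8.88 to 7.83 and 7.93 (−0.98 ± 0.09, 1.97-fold, adjusted p = 0.00113). Mrpl50 fell from 8.85 and 8.93 to 8.27 and 8.23 (−0.64 ± 0.09, adjusted p = 0.0055), and both genes kept their call whichever array was left out. Mrps15, Mrps21 and Mrpl22, all with bacterial counterparts, fell by 0.78 (adjusted p = 0.0183), 0.78 (adjusted p = 0.0121) and 0.73 (adjusted p = 0.0134) on the log2 scale. Mrpl22 belongs to the wall of the exit tunnel in bacteria. Each of these last calls was lost in at least 2 of the 8 fits with 1 array left out, where Mrps15 reached an adjusted p of 0.084, Mrps21 0.0638 and Mrpl22 0.0689. Mrpl23, Mrps12, Mrps18c, Mrps23 and Mrps33 fell by 0.36 to 0.56.

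Of the 4 genes that rose on stimulation of WT cells, Mrps22 went from 6.73 and 6.96 to 7.34 and 7.46 (0.55 ± 0.14, adjusted p = 0.0315). Mrps9 rose by 0.36 ± 0.10, Mrpl10, the base of the stalk, by 0.34 ± 0.09 and Mrpl53 by 0.29 ± 0.08 (adjusted p = 0.0422, 0.0364 and 0.0459). The last 3 calls were lost when any 1 of the 8 arrays was left out, and that of Mrps22 when any array other than those of iNOS-/- M1 was. The 14 calls became 7, 4, 2 and 7 without WT unstimulated array 1, array 2, WT M1 array 1 and array 2, and 9 without either iNOS-/- unstimulated array. With neqc, 25 genes were called, 7 higher and 18 lower, beside 19.9% and 26.1% of all genes tested.

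Stimulation of iNOS-/- cells gave 30 called genes, with far more falls than rises. It lowered 24 of the 67 (35.8%, beside 25.2% of all genes tested) and raised 6 (8.96%, beside 26.4% of all). The median change was −0.26, beside 0.04 over all genes, and 49 of the 67 lay below 0. Dividing cell markers moved the same way, with 8 of 10 tested called lower, and their part in the result was not tested. Cytosolic ribosomal proteins had a median of 0.21 with 18 of 58 higher and 4 lower, and respiratory chain subunits a median of 0.04 with 6 of 67 higher and 5 lower.

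The genes that fell came from both subunits. In the large subunit 13 of 42 fell and 5 rose, with a median of −0.16, and in the small subunit 11 of 25 fell and 1 rose, with a median of −0.33. Proteins with a bacterial counterpart (16 of 43 lower, 4 higher) and those found only in mitochondria (8 of 24 lower, 2 higher) both took part.

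Among brightest probes, Mrps35 fell most, from 7.10 and 7.22 to 5.62 and 5.82 (−1.44 ± 0.17, 2.72-fold, adjusted p = 0.00155). Mrpl12 fell from 9.36 and 9.51 to 8.11 and 8.32 (−1.22 ± 0.11, 2.33-fold, adjusted p = 0.000626). In both, each M1 array lay more than 1 log2 unit below each unstimulated array. Mrps26, a mitochondria-specific small subunit protein, fell from 8.68 and 8.62 to 7.66 and 7.75 (−0.94 ± 0.09, adjusted p = 0.000764). Mrpl34 fell from 8.23 and 8.30 to 7.34 and 7.49 (−0.85 ± 0.10, adjusted p = 0.00137), and Mrpl28 from 10.32 and 10.39 to 9.53 and 9.49 (−0.84 ± 0.08, adjusted p = 0.000743). These 5 genes are spread over the assembled ribosome, from the stalk to the small subunit. Mrps5, part of the small subunit's decoding region in bacteria, fell by 1.03 ± 0.33 on the log2 scale (adjusted p = 0.0489). Its probe was dim, its M1 arrays read 4.44 and 3.84, and the call was lost without any 1 array other than iNOS-/- M1 array 1 (adjusted p up to 0.189). The other 18 that fell did so by 0.30 (Mrpl36) to 0.78 (Mrpl49).

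Mrps25, a mitochondria-specific small subunit protein, was singled out after its values were seen, because its 3 probes disagreed. The brightest, at transcript position 306, read 6.15 and 5.97 before and 5.71 and 5.61 after stimulation of iNOS-/- cells (−0.40, adjusted p = 0.0616), so that the gene was not called. The probe at 1120 read 5.72 and 5.73 before and 4.18 and 3.68 after (−1.79, adjusted p = 0.000809), a larger fall than that of Mrps35. The probe at 1140 fell by 1.23 on the log2 scale (adjusted p = 0.00313). Against WT M1, the probes at 1120 and 1140 were lower (−1.80 and −1.40, adjusted p = 0.000993 and 0.00231). That at 306 differed by 0.10 (adjusted p = 0.6). On the WT M1 arrays the probe at 1120 read 5.66 and 5.80, and that at 306 read 5.68 and 5.44. The probe at 306 was thus brightest by its mean over all arrays, not in every group. As 50-base probes with nearby starts, those at 1120 and 1140 may overlap and may not be separate readings. Mrps31 also had 1 of 3 tested probes called lower on stimulation of iNOS-/- cells (−1.36, adjusted p = 0.00066), and the dimmer probe of Mrpl3 was called higher (0.53, adjusted p = 0.00875).

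Of the 6 genes that rose, Mrpl13 went from 9.73 and 9.66 to 10.52 and 10.47 (0.80 ± 0.10, adjusted p = 0.00181). Mrpl27 rose by 0.67 ± 0.17 (adjusted p = 0.0214), Mrpl54 by 0.53 ± 0.10 (adjusted p = 0.00935), Mrpl20 by 0.53 ± 0.11 (adjusted p = 0.0109), Mrpl53 by 0.47 ± 0.08 (adjusted p = 0.00661) and Mrps18c by 0.45 ± 0.11 (adjusted p = 0.0185). All but Mrps18c belong to the large subunit. The call of Mrpl27 was lost without iNOS-/- unstimulated array 1 (adjusted p = 0.0963) or iNOS-/- M1 array 2 (0.0912), that of Mrpl54 without iNOS-/- unstimulated array 1 (0.0563), and that of Mrpl20 without array 2 of that group (0.0655).

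The number of genes that rose depended on the scaling. Under neqc 41 genes were lower and 1 higher, beside 35.5% and 24.2% of all genes tested. Under quantile normalization all 37 genes called were lower, beside 32.1% of all genes lower and 20.7% higher. Those normalizations moved the median of all genes in this comparison by −0.12 and −0.21, and relative to it the median of the 67 genes was −0.33 and −0.27, beside −0.30 with the scaling used here. Without either iNOS-/- unstimulated array, 19 genes were called in place of 30, 4 higher and 15 lower, and without iNOS-/- M1 array 2 there were 20.

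**Figure D3:**
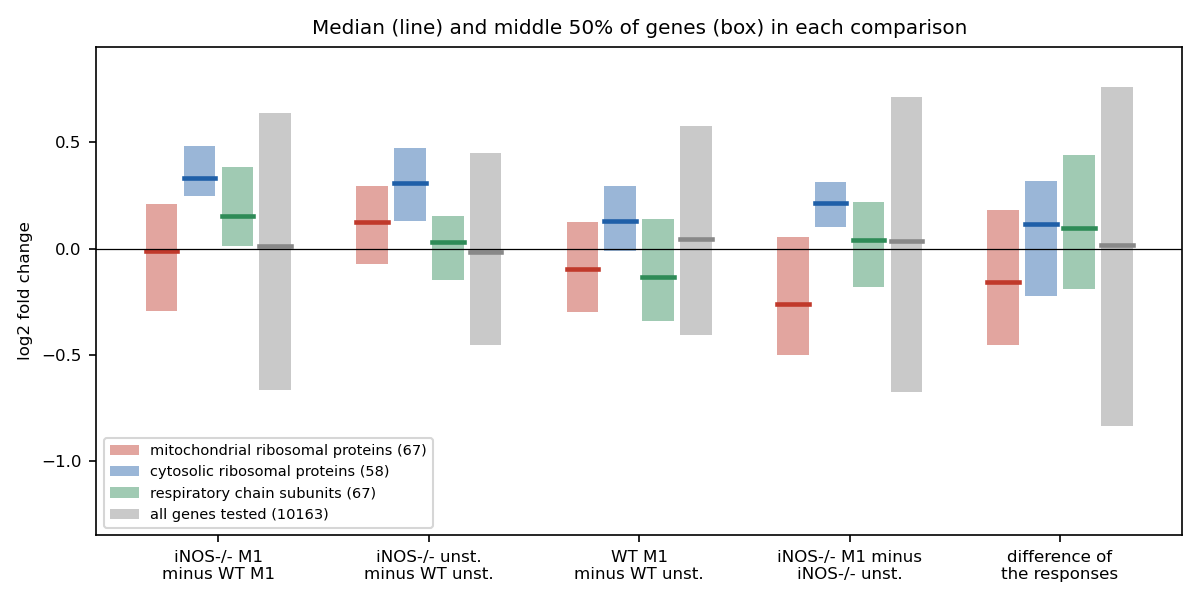
Median (line) and middle 50% of genes (box) of the log2 fold change in each of the 5 comparisons for 67 mitochondrial ribosomal protein genes, 58 cytosolic ribosomal protein genes, 67 respiratory chain subunit genes and all 10163 genes tested. The mitochondrial ribosomal proteins had a median of −0.26 on stimulation of iNOS-/- cells, where the cytosolic ones had 0.21.

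The responses of both genotypes were then set against each other within 1 model, which tests the difference between them. The response of iNOS-/- cells was lower than that of WT cells for 13 of the 67 genes (19.4%, beside 21.9% of all genes tested) and higher for 5 (7.46%, beside 21.7%). The median difference was −0.16, beside 0.02 over all genes. The comparisons share arrays, so their counts are not independent.

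Mrpl12 had the lowest difference among genes called (−1.47 ± 0.16, adjusted p = 0.00193), with a change of 0.25 ± 0.11 in WT cells (adjusted p = 0.15) and of −1.22 in iNOS-/- cells. Mrpl28 differed by −1.09 ± 0.11 (adjusted p = 0.00179), with 0.25 ± 0.08 in WT (adjusted p = 0.0647) and −0.84 in iNOS-/- cells. Both were thus highest in iNOS-/- unstimulated and lowest in iNOS-/- M1 cells, with the WT groups in between. Mrps9 (−0.86 ± 0.14, adjusted p = 0.00681) was called in opposite directions, up by 0.36 in WT and down by 0.50 ± 0.10 in iNOS-/- cells. Of the lower genes, 12 also fell on stimulation of iNOS-/- cells, and the exception was Mrpl9. The difference includes that response by construction, so this overlap is partly built in and is no separate support. In the dividing cell markers the same difference was called lower for 9 of 10 tested, and their part in the result was not tested.

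Mrps6 differed most in the other sense among small subunit genes (1.04 ± 0.12, adjusted p = 0.00235), with a fall of 0.98 in WT cells on the log2 scale and 0.06 ± 0.09 in iNOS-/- cells (adjusted p = 0.579). Its arrays read 8.84 and 8.88 in WT unstimulated cells, and from 7.83 to 8.28 on the other 6. Mrps18c (1.01 ± 0.15, adjusted p = 0.00524) fell by 0.56 in WT cells and rose by 0.45 in iNOS-/- cells. Mrpl27 (1.05 ± 0.24, adjusted p = 0.019) and Mrpl13 (0.82 ± 0.14, adjusted p = 0.00782) rose in iNOS-/- cells, with changes of −0.38 ± 0.17 and −0.02 ± 0.10 in WT cells. Mrps9 and Mrps18c were the only 2 of the 67 genes called in opposite directions by the same stimulus (2 genes, beside 8.59% of all genes tested). Mrpl22, Mrpl23, Mrpl50, Mrps12 and Mrps23 were called lower in both genotypes (5 of 67, beside 6.43% of all genes tested), and Mrpl53 higher in both (1 of 67, beside 9.52% of all).

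The 18 calls became 8 without either WT unstimulated array, 10 without iNOS-/- unstimulated array 1 and 11 without WT M1 array 2. The call of Mrps35 was lost without any 1 array other than WT M1 array 1 (adjusted p up to 0.117), that of Mrpl20 without any other than iNOS-/- M1 array 1 (up to 0.128), and that of Mrpl38 in 5 of the 8 fits (up to 0.0757). The call of Mrpl27 was lost without WT unstimulated array 2 (adjusted p = 0.052), WT M1 array 2 (0.0637), iNOS-/- unstimulated array 1 (0.0517) or iNOS-/- M1 array 2 (0.0543). With neqc 3 genes were higher and 24 lower, beside 25.5% and 27% of all genes tested. With quantile normalization 3 were higher and 20 lower, beside 19.1% and 24.6% of all. The difference of Mrpl13 was then 0.27 (adjusted p = 0.133) and 0.28 (adjusted p = 0.161).

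**Figure D4:**
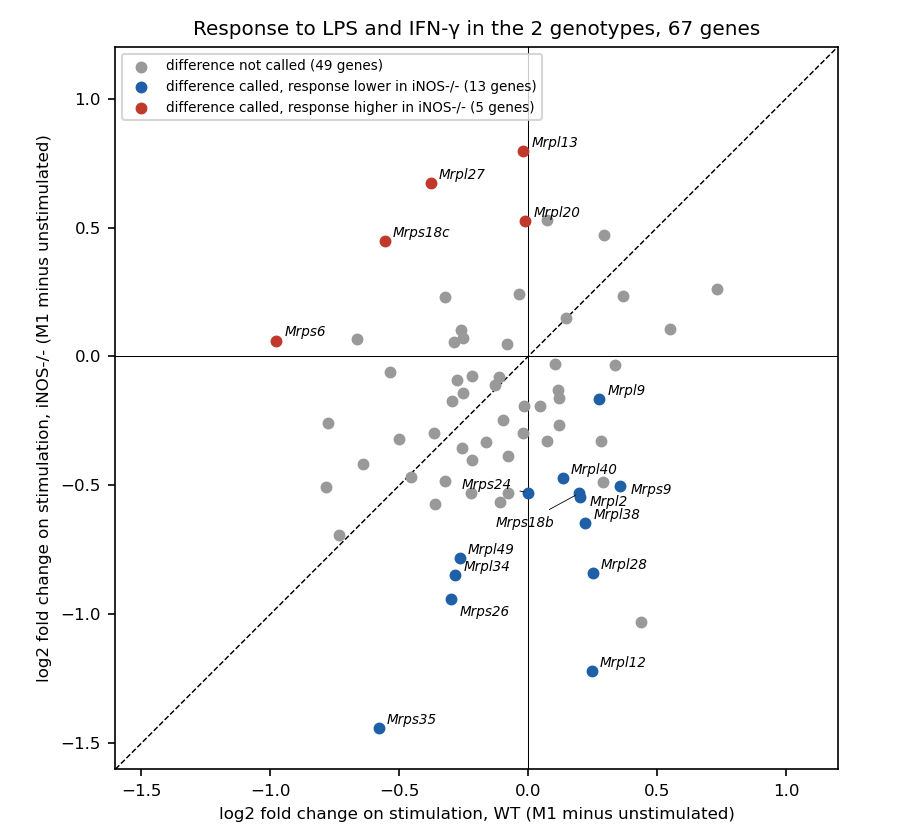
Log2 fold change on stimulation in WT cells (horizontal) against that in iNOS-/- cells (vertical) for the 67 genes, with the dashed line marking equal responses. Genes whose difference in response was called are labelled: 13 lie below the line (blue) and 5 above it (red).

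The proteins that work with the mitochondrial ribosome were read from lists drawn up for these pathways, and their counts stand beside 25.2% of all genes tested called lower and 26.4% called higher on stimulation of iNOS-/- cells. Of 6 ribosomal proteins that carry other symbols, 1 fell on stimulation of iNOS-/- cells, Ict1, a peptidyl-tRNA hydrolase built into the large subunit. Its arrays went from 6.14 and 6.13 to 5.10 and 5.50 (−0.83 ± 0.15, adjusted p = 0.00761), whereas in WT cells it rose by 0.54 ± 0.15 (adjusted p = 0.0447). Dap3, a GTP-binding protein of the small subunit, rose in WT cells by 0.51 ± 0.07 (adjusted p = 0.00559) and changed by −0.12 ± 0.07 in iNOS-/- cells (adjusted p = 0.246). For both, the difference between the responses was itself called (−1.37 ± 0.22, adjusted p = 0.00617, and −0.63 ± 0.10, adjusted p = 0.00719).

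Of 8 translation factors tested, 4 fell on stimulation of iNOS-/- cells, beside 25.2% of all genes. They were Mtrf1, related to the release factors (−1.01 ± 0.18, adjusted p = 0.00647), Tsfm, the exchange factor of the elongation factor Tu (−0.56 ± 0.11, adjusted p = 0.00873), the recycling factor Mrrf (−0.37 ± 0.11, adjusted p = 0.0414) and the initiation factor Mtif2, which was not detected on any M1 array. On stimulation of WT cells 2 of the 8 factors fell and none rose, beside 16.2% and 20.2% of all genes. The median change of the 8 factors was −0.37 in each genotype. Among 13 assembly and rRNA-modifying proteins, 3 fell on stimulation of iNOS-/- cells (23.1%, near the share of all genes) and 1 rose. The GTPase Mtg1 fell by 1.82 ± 0.20 on the log2 scale (adjusted p = 0.00109) and the helicase Ddx28 by 0.77 ± 0.16 (adjusted p = 0.0116), while Nsun4, which methylates the ribosomal RNA and joins the subunits, rose by 0.66 ± 0.08 (adjusted p = 0.00135).

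Of 10 genes for mitochondrial transcription, DNA copying and RNA, 5 fell on stimulation of iNOS-/- cells, beside 25.2% of all genes. The RNA polymerase Polrmt, to which the Mrpl12 protein binds, read 8.66 and 8.47 before and 7.92 and 7.90 after (−0.65 ± 0.10, adjusted p = 0.00371), beside 8.61, 8.51, 8.54 and 8.57 on the 4 WT arrays. Its cofactor Tfb2m fell by 1.10 ± 0.16 on the log2 scale (adjusted p = 0.00335). Of 7 tested regulators of mitochondrial biogenesis, 4 rose, beside 26.4% of all genes, and 1 fell. The ETS factor subunits Gabpa and Gabpb1 both rose by 1.59 (adjusted p = 0.000286 and 0.000339), and Nrf1 rose by 0.61 ± 0.09 (adjusted p = 0.00333). Ppargc1b, the coactivator PGC-1β, fell from 7.63 and 7.68 to 4.68 and 4.51 (−3.06 ± 0.13, adjusted p = 5.97e-05), and in WT cells it changed by −0.05 ± 0.13 (adjusted p = 0.792). On stimulation of WT cells 3 of the 7 regulators were called higher and none lower, beside 20.2% and 16.2% of all genes.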

How the data were processed

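RNA of 4 groups with 2 arrays each was measured on Illumina mouse bead arrays (MouseRef-8 in the platform label, MouseWG-8 in the protocol). The authors deposited a GenomeStudio table of probe intensity, without normalization between arrays per the file headers, and a detection p-value per probe. The headers also name no background subtraction, yet 48.9% to 52.7% of undetected values per array lie below 0, so a background may already have been removed. No further one was subtracted, and folds of dim probes depend on it. The processing notes also name limma 3.14.4. All value columns were matched to samples through their titles.

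To scale the arrays, a robust regression without intercept (rlm of MASS 7.3.60.0.1) was run against the mean array over rank-invariant probes, those with a relative rank difference below 0.05 and a rank between 0.5 and 0.9. A floor of 1 preceded log2. The 13868 probes that 2 or more arrays detected (p-value below 0.05) entered a 4-group linear model in limma 3.58.1 under R 4.3.3, moderated by eBayes, with Benjamini-Hochberg adjustment over all of them. Only 4 residual degrees of freedom and 2 arrays a group limit the precision. A gene was read from its brightest tested probe. The procedure was also run on simulated arrays in which 200 probes were changed in iNOS-/- M1 alone. Far more genes were called in each comparison here, so that run does not test the scaling under such wide change. The members, gene lists and tests were chosen with earlier results of these data known. The genes checked under other settings were, in each comparison, the up to 5 called most changed in each direction. Outside the difference in response, both arrays of the higher group had to detect them and the groups' arrays had to be apart. Other called genes, other probes and genes of the lists are named as well, without that check. Gene symbols are those of the array's design, and no array coordinates are given because the build is not given in the sources used here. Promoters were read from the first RefSeq window listed per gene (GRCm38.p6).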

Additional observations from a re-analysis of the deposited data

Results flagged for a closer look

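For 18 of the 67 genes the response to LPS and IFN-γ differed between the genotypes by the test of the difference itself in limma. All values are log2 changes on stimulation of iNOS-/- cells minus those of WT cells, over 2 arrays a group. The lower responses were those of Mrpl12 (−1.47), Mrpl28 (−1.09), Mrpl38 (−0.87), Mrps35 (−0.86), Mrps9 (−0.86), Mrpl2 (−0.75), Mrps18b (−0.73), Mrps26 (−0.64), Mrpl40 (−0.60), Mrpl34 (−0.56), Mrps24 (−0.53), Mrpl49 (−0.52) and Mrpl9 (−0.44). Adjusted p-values ran from 0.00179 for Mrpl28 to 0.045 for Mrpl40. The higher responses were those of Mrpl27 (1.05), Mrps6 (1.04), Mrps18c (1.01), Mrpl13 (0.82) and Mrpl20 (0.54), with adjusted p-values from 0.00235 for Mrps6 to 0.0393 for Mrpl20. Among all genes tested, 21.7% had a higher and 21.9% a lower response in iNOS-/- cells.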

How the results depend on the processing

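Counts below are of the 67 genes called, in limma, and medians are of their log2 fold changes. The comparisons are iNOS-/- M1 against WT M1, both genotypes unstimulated, stimulation of WT, stimulation of iNOS-/- and the difference in response, in this order. They gave 26, 15, 14, 30 and 18 calls and medians of −0.01, 0.12, −0.10, −0.26 and −0.16. With a 2-fold minimum the calls were 2, 0, 0, 3 and 5, where unadjusted p-values under 0.05 numbered 23 and 25 in the comparisons at 0. Of all genes tested, 11.4%, 8.47%, 10.4%, 14.6% and 12.9% were called higher with that minimum. The shares called lower were 13.4%, 6.07%, 4.8%, 14.2% and 15.5%. A fit on the 4 arrays of the comparison alone gave 15, 5, 7 and 18 calls. Stimulation of WT had 24 calls with detection on all 8 arrays, 23 with a floor of 16, 25 with neqc and 32 with an intensity trend. That trend gave 29 for the difference in response, and neqc gave 24 before stimulation. Medians with quantile normalization were −0.10, 0.18, −0.18, −0.44 and −0.24. With neqc they were −0.093 for the first comparison, −0.17, −0.42 and −0.21 for the last 3. Regressing the mean array on each array gave −0.057 for the first, −0.31 for stimulation of iNOS-/- and −0.22 for the difference. The mean over all probes of a gene gave 0.031 for the first, and no detection filter −0.22 for stimulation of iNOS-/-. An intercept in the line moved the median of all genes by 0.14 in the first comparison, −0.13 in stimulation of WT and 0.19 in the difference. Relative to all genes, the members' median with the intercept was −0.15, 0.20, −0.016, −0.34 and −0.37, beside −0.025, 0.14, −0.14, −0.30 and −0.18 without it. The intercept, the regression on each array and the intensity trend were chosen after seeing the data. Without 1 array, calls ranged from 14 to 22, 2 to 13, 2 to 12, 19 to 27 and 8 to 13, and medians from −0.096 to 0.0075, 0.053 to 0.19, −0.14 to −0.066, −0.27 to −0.18 and −0.21 to −0.073. The most changed genes chosen in each comparison, up to 5 in each direction, gave 552 values under the other settings. Of these, 465 stayed called in the same direction and 86 lost the call. The 1 that reversed was Mrpl49 before stimulation with the mean over all its probes (0.17). Of 376 values without 1 array, 277 stayed called and 99 lost the call. The cause was not tested.

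Arrays with the same replicate number did not deviate together (correlations of −0.04 to 0.02). This cannot tell whether the numbers pair them, since a shared mouse or culture need not leave such a trace. With the replicate number as a block the calls were 23, 9, 11, 27 and 17. Dim probes, such as those of Mrpl39 and Mrps5, limit what could be read.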
